A study of Sus scrofa with 9 samples.

Results

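Longissimus dorsi muscle of pigs fed lysine in excess was compared with that of pigs fed an adequate amount, using 6 of the 9 whole-transcript arrays of the study. The 6 arrays were taken by the diet in their titles: 3 pigs on the lysine-excess diet (pigs 9, 10 and 11) and 3 on the lysine-adequate diet (pigs 5, 6 and 7), with 1 array per pig. All were male finishing pigs of about 95 kg at the start, fed for 5 weeks. The only difference the labels give between the groups is the diet, formulated with reference to NRC swine requirements, and neither lysine contents nor breed or age are stated there. The remaining 3 arrays, from pigs on a lysine-deficient diet (pigs 1, 2 and 3), entered the fit only for its estimate of the spread, and their values are given beside some genes. The comparison asks whether lysine above the requirement leaves a trace in muscle transcripts.

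Lysine is an essential amino acid that muscle builds into protein and that cannot be stored as such. Surplus lysine is degraded in mitochondria, mainly through saccharopine to acetyl-CoA, by a route led by the enzyme AASS, and trimethylated lysine released from proteins is the starting material for carnitine. Skeletal muscle senses amino acid supply through the mTORC1 kinase on lysosomes and through the kinase GCN2, and it is built of slow, oxidative and fast, glycolytic fibres with different sets of myosin and troponin genes.

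The data were the authors' deposited log values of 27558 probe sets, taken as log2, and 12361 genes had at least 1 probe set with a single symbol. The muscle label was borne out: the 8 measured of 15 skeletal muscle markers had mean values between 12.39 and 13.36, where the median of all values was 5.06. The array of excess pig 11 stood apart from the rest. Its values had an SD of 1.82 against 1.93 to 1.99 on the other arrays, and its correlations with them were 0.904 to 0.956, against 0.977 to 0.992 among the others. When probe sets were split into 10 bins by mean level, the values of pig 11 lay below the adequate mean by a median log2 difference of -0.55 in the ninth bin and -0.31 in the brightest, and above it by 0.16 in the second dimmest. In the ninth bin the medians for pigs 9 and 10 were 0.02 and -0.07. The group difference had a median of -0.20 in the ninth bin, and of -0.03 without it. The results below are therefore given with and without excess pig 11.

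**Figure D1:**
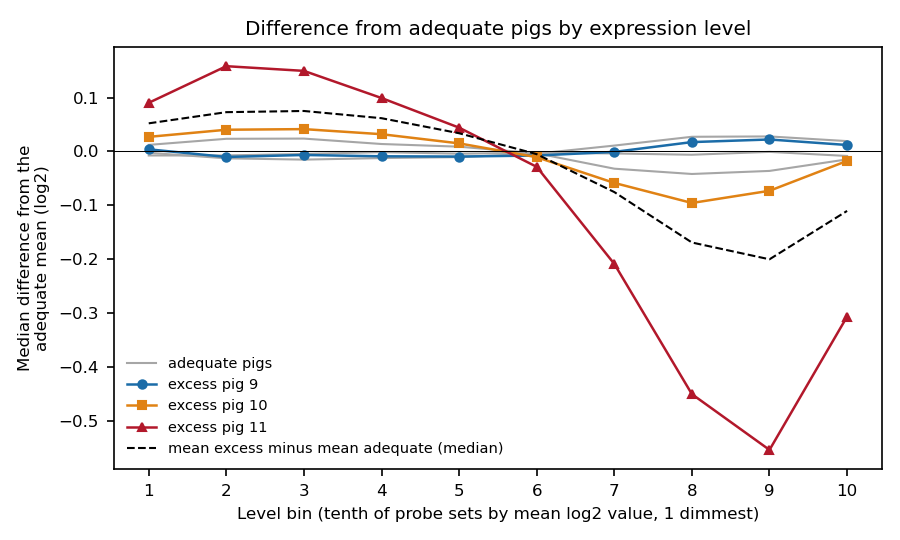
Median difference of each pig from the mean of the adequate pigs (log2, vertical axis) in 10 bins of mean expression level (horizontal axis), for the excess pigs in colour and the adequate pigs in grey; the dashed line is the median group difference. Excess pig 11 lies above the adequate mean in dim bins and at -0.55 in the ninth bin, while pigs 9 and 10 stay between -0.10 and 0.04.

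An adjusted p under 0.05 by limma was reached by 0% of the 27558 probe sets, with all arrays or without excess pig 11, and the smallest adjusted p was 0.757 with all arrays. No gene can therefore be called changed by the excess diet, and the values below describe these 6 pigs. At an unadjusted p under 0.05 there were 981 probe sets, 373 higher and 608 lower in the excess pigs. This split was 224 higher and 597 lower after each array was centred on its median, and 324 higher and 348 lower without pig 11. The total rested on single pigs: it was 4638 without excess pig 9, 584 without adequate pig 5 and 589 without adequate pig 6. Counted by gene, 1.11% of the 12361 genes were higher and 2.42% lower at this level, and 0.987% and 1.12% without pig 11. The 3 excess pigs lay above all 3 adequate pigs for 2.69% of genes and below them for 4.35%. Of all genes 54.5% had a negative difference, and 49.3% without pig 11.

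Angiotensinogen, AGT, the precursor from which renin releases the angiotensin peptides, had the smallest unadjusted p among the genes that met the naming rule. Its log2 values were 7.96, 7.77 and 7.31 in adequate pigs 5, 6 and 7 and 6.51, 6.58 and 6.21 in excess pigs 9, 10 and 11. Every excess pig lay more than the whole range of the adequate pigs below their lowest value. The level was 2.38-fold lower (log2 difference -1.25 ± 0.19, SE, unadjusted p = 2.31e-04), and the difference was -1.14 ± 0.21 without pig 11. It ran from -1.44 to -1.11 over the fits that left out 1 of the 6 pigs. The deficient pigs were at 7.64, 7.73 and 7.30, all above every excess pig, and pig 3 lay just below the lowest adequate pig.

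AGTR1, the main receptor of angiotensin II, had values of 9.16, 8.53 and 9.28 in the adequate and 8.57, 8.40 and 7.66 in the excess pigs, which overlapped (log2 difference -0.78 ± 0.27, and -0.51 ± 0.22 without pig 11). MME, neprilysin, a peptidase that can cleave angiotensin I, lay the other way, at 6.14, 5.61 and 5.95 in the adequate and 6.58, 6.14 and 6.14 in the excess pigs (0.39 ± 0.17, and 0.46 ± 0.19 without pig 11). MAS1, a receptor for angiotensin 1-7, was higher without overlap by 0.18 (0.16 without pig 11), at a level below the median of all values. Of the 11 measured of 16 genes of this system, 4 were higher, 7 were lower and the median was -0.03. At an unadjusted p under 0.05 there were 2 lower genes, AGT and AGTR1, and no higher one, against 2.42% and 1.11% of all genes. Without pig 11 AGT was lower and MME higher at this level, against 1.12% and 0.987%. ACE, the converting enzyme, differed by -0.03 (0.08 without pig 11) and the renin receptor ATP6AP2 by -0.36, which was -0.02 without pig 11. AGTR2, the second receptor, differed by 0.42, and by 0.17 without it. The system therefore did not lie in 1 direction.

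By the naming rule, 113 probe sets of 110 genes were at or above the median level, lay apart in all 6 pigs and had an unadjusted p under 0.05 in the same direction without pig 11. Of these 10 were higher and 103 lower. At these levels, in the upper 5 of the 10 bins, the median of pig 11 was negative in every bin, and the split is not read as a direction.

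**Figure D2:**
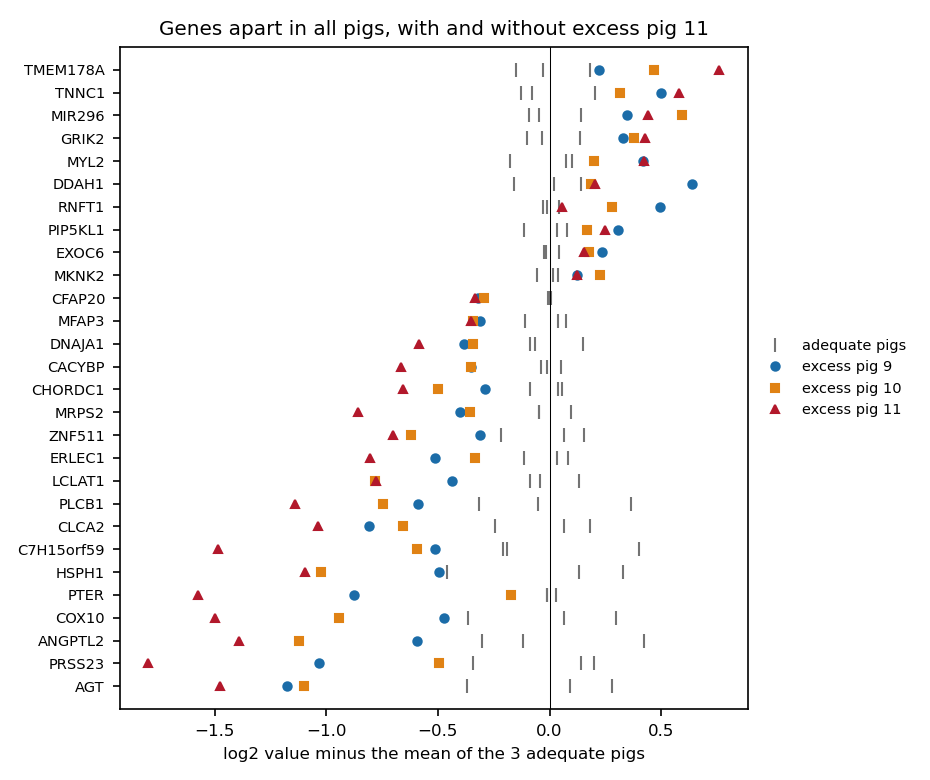
Values of the 28 genes named by p or by size (rows), each as the log2 value minus the mean of the 3 adequate pigs (horizontal axis); grey bars are adequate pigs and coloured symbols are excess pigs. All 3 excess pigs of AGT lie between -1.5 and -1.1, while in PTER and PRSS23 excess pig 11 lies far below pig 10.

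LCLAT1, an acyltransferase that remodels the mitochondrial lipid cardiolipin, had values of 8.88, 8.70 and 8.66 in the adequate and 8.31, 7.96 and 7.97 in the excess pigs. The excess group was 1.59-fold lower (-0.67 ± 0.11, unadjusted p = 4.26e-04, and -0.61 ± 0.12 without pig 11). The deficient pigs lay between, at 8.34, 8.50 and 8.44. CLCA2, a membrane protein of the calcium-activated chloride channel regulator family, had values of 6.64, 7.06 and 6.95 against 6.07, 6.23 and 5.85 and was 1.78-fold lower (-0.83 ± 0.16, and -0.73 ± 0.17 without pig 11). In CLCA2 the deficient pigs had 6.26, 6.74 and 6.46, a difference of -0.40 from the adequate pigs. In both genes every excess pig lay below every adequate pig, as the naming rule required.

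Pigs of 1 diet lay close together in CFAP20, a protein of cilia. Its adequate values were 6.38, 6.37 and 6.37 and its excess values 6.05, 6.08 and 6.04, a difference of -0.32 ± 0.07 (-0.31 without pig 11). MFAP3, a microfibril-associated protein, had values of 6.56, 6.38 and 6.52 against 6.18, 6.15 and 6.13 (-0.33 ± 0.07, and -0.33 without pig 11). In these 2 genes the excess pigs differed among themselves by at most 0.05, and pig 11 lay with the other excess pigs. The median difference of their level bin was -0.08.

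PLCB1, a phospholipase C that releases inositol trisphosphate behind G protein-coupled receptors, was 1.77-fold lower, at 8.70, 8.28 and 8.01 against 7.74, 7.58 and 7.19 (-0.83 ± 0.20, and -0.67 ± 0.20 without pig 11). ANGPTL2, a secreted angiopoietin-like protein, was 2.05-fold lower, at 9.13, 8.59 and 8.41 against 8.11, 7.59 and 7.32 (-1.03 ± 0.26, and -0.86 ± 0.27 without pig 11). Its deficient values were 7.75, 8.32 and 8.03, a difference of -0.67 from the adequate pigs. MRPS2, a subunit of the mitochondrial ribosome, differed by -0.54 ± 0.14 and ZNF511, a zinc finger protein, by -0.54 ± 0.13 (-0.38 and -0.47 without pig 11).

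Some large differences leaned on pig 11. PRSS23, a secreted serine protease, had values of 7.06, 6.58 and 7.12 in the adequate and 5.89, 6.43 and 5.12 in the excess pigs, so that its difference of -1.11 ± 0.32 was -0.76 ± 0.23 without pig 11. PTER, a phosphotriesterase-related protein, had adequate values of 10.98, 10.93 and 10.93 and excess values of 10.07, 10.78 and 9.37, and its difference of -0.88 ± 0.30 was -0.53 ± 0.20 without pig 11 and -1.23 without pig 10. C7H15orf59 differed by -0.86, and by -0.55 without pig 11. COX10, an enzyme on the route to the heme A of cytochrome oxidase, had 5.83, 6.06 and 5.40 against 5.29, 4.82 and 4.26 on 1 probe set. It differed there by -0.97 ± 0.31, but by -0.03 ± 0.10 on its other probe set (-0.71 and -0.01 without pig 11).

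Among the 10 higher genes, MIR296, a microRNA locus, had values of 4.82, 5.05 and 4.86 in the adequate and 5.26, 5.50 and 5.35 in the excess pigs, which is 1.38-fold (0.46 ± 0.11, unadjusted p = 0.00332, and 0.47 ± 0.13 without pig 11). GRIK2, a kainate receptor subunit, had 5.21, 5.03 and 4.97 against 5.40, 5.45 and 5.50 (0.38 ± 0.10, and 0.35 ± 0.11 without pig 11). Both lay close to the median of all values, 5.06, where signal over background was not tested. DDAH1, TMEM178A and PIP5KL1, given below, were in the same bin of mean level, and this limit holds for them too. RNFT1, a RING finger protein, had close adequate values of 9.58, 9.65 and 9.59 and excess values of 10.10, 9.89 and 9.66, where pig 11 was nearest the adequate pigs, so that the difference of 0.28 ± 0.11 was 0.39 ± 0.08 without it. DDAH1, which degrades the nitric oxide synthase inhibitor dimethylarginine, differed by 0.34 ± 0.13 and by 0.41 ± 0.14 without pig 11. It differed by 0.20 without pig 9, whose value was 6.01. TMEM178A differed by 0.48, PIP5KL1 by 0.24 and EXOC6, of the exocyst, by 0.19, against 0.35, 0.24 and 0.20 without pig 11. MKNK2, a kinase of the initiation factor eIF4E, differed by 0.16 ± 0.06 on 1 probe set and by 0.30 ± 0.11 on the other (0.18 and 0.28 without pig 11). In the deficient pigs these probe sets differed from the adequate pigs by 0.20 and 0.37. MIR378-1, a microRNA locus outside these 10, had 5.70, 5.39 and 5.61 against 5.76, 6.06 and 6.72, and its difference of 0.61 ± 0.23 was 0.34 ± 0.15 without pig 11.

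Slow fibre genes lay higher in the excess pigs. All 9 measured of 12 were on this side, with a median of 0.24, and of 0.26 without pig 11, where all 9 were again higher. Their level bins had medians near -0.11 with all arrays. At an unadjusted p under 0.05 there were 3 higher genes with all arrays, TNNC1, MYL2 and TPM3, against 1.11% of all genes, and 2 without pig 11, TNNC1 and MYL2, against 0.987%. The pigs did not overlap in 3 genes, TNNC1, MYL2 and MYH7, against 2.69% of all genes.

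TNNC1, the calcium-binding troponin C of slow and cardiac muscle, had values of 10.79, 10.74 and 11.07 in the adequate pigs and 11.37, 11.19 and 11.45 in the excess pigs. It was 1.38-fold higher (0.47 ± 0.11, unadjusted p = 0.00279, and 0.41 ± 0.11 without pig 11), and the deficient pigs, at 11.22, 11.13 and 11.13, lay above the adequate pigs as well. MYL2, the slow regulatory myosin light chain, had 12.26, 12.01 and 12.29 against 12.61, 12.39 and 12.62 (0.35 ± 0.11, and 0.31 ± 0.12 without pig 11). Here the deficient pigs, at 12.15, 12.08 and 12.31, lay with the adequate pigs. MYH7, the slow myosin heavy chain, had 12.49, 12.35 and 12.49 against 12.96, 12.50 and 12.71 (0.28 ± 0.14, and 0.29 ± 0.16 without pig 11), where pig 10 was just above the adequate pigs. TPM3, slow tropomyosin, differed by 0.30 ± 0.12 with an overlap, and by 0.26 without pig 11.

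The slow fibre difference was carried most by pig 9. The median over the 9 genes was 0.46 above the adequate mean in pig 9, 0.06 in pig 10 and 0.11 in pig 11, while the adequate pigs ran from -0.13 to 0.08. Without pig 9 the list median was 0.10 with 7 genes higher and 2 lower, and without pig 10 it was 0.39. Leaving out any 1 adequate pig gave 8 higher and 1 lower. MYL3, CASQ2, MYOZ2 and ACTN2 differed by 0.06 to 0.20 with overlaps, and by 0.12 to 0.24 without pig 11. The SEs with all arrays were 0.18, 0.55, 0.15 and 0.12 in this order. CASQ2 and ACTN2 changed sign when single pigs were left out, reaching -0.30 and -0.07. CSRP3, the Z-disc LIM protein, differed by 0.24 ± 0.78 on its brighter probe set and by -0.44 ± 0.74 on the other (0.51 and -0.38 without pig 11), so its direction is not settled. It is counted among the 9 higher genes by the brighter probe set. Among the 10 measured of 16 fast fibre genes, 1 was higher and 9 lower, with a median of -0.05, and -0.04 without pig 11. CASQ1, the calsequestrin of fast fibres, differed by -0.08 ± 0.06 without overlap, ATP2A1, the fast calcium pump, by -0.08 ± 0.08 and TNNC2, fast troponin C, by -0.05 ± 0.07, against -0.07, -0.05 and -0.05 without pig 11. The skeletal actin ACTA1 differed by 0.13 ± 0.11 and the calcium release channel RYR1 by -0.07 ± 0.08, against 0.02 and -0.03 without pig 11.

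**Figure D3:**
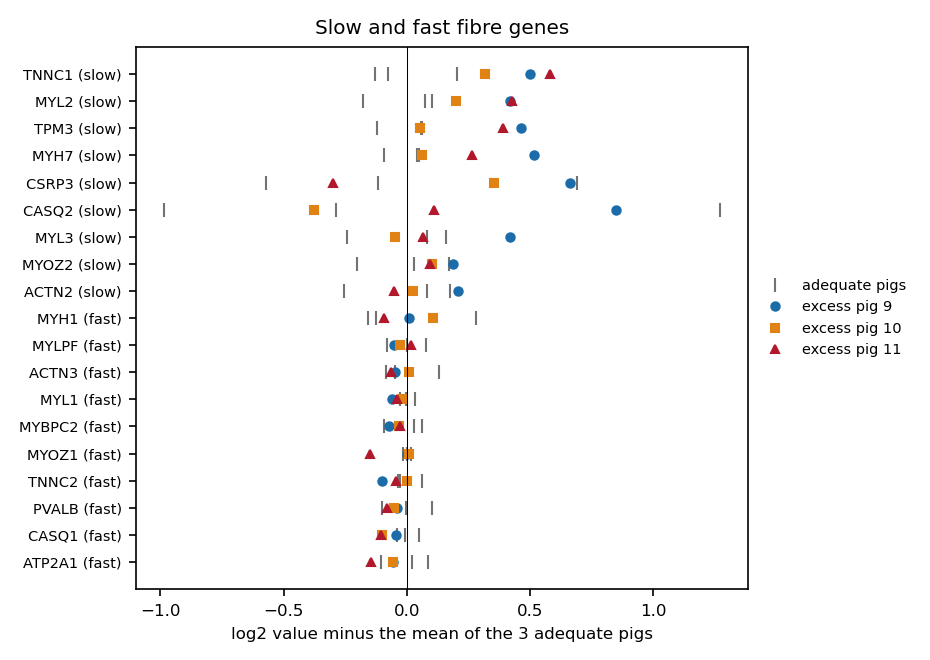
Slow and fast fibre genes (rows), each as the log2 value minus the adequate mean (horizontal axis), with adequate pigs as grey bars and excess pigs as coloured symbols. Excess pig 9 is highest or close to it in most slow fibre genes, and most fast fibre genes lie within 0.15 of 0 in every excess pig.

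Heat shock chaperones and their partners, a list that holds mainly cytosolic proteins but also the mitochondrial HSPA9, HSPD1 and HSPE1 and the collagen chaperone SERPINH1 of the endoplasmic reticulum, lay lower in the excess pigs. Of the 30 measured of 36 heat shock and co-chaperone genes, 28 were lower and 2 higher, with a median of -0.25, and without pig 11 it was 25 lower and 5 higher with a median of -0.17. There were 7 lower genes at an unadjusted p under 0.05 among these 30, against 2.42% of all genes, and 4 without pig 11, against 1.12%. The list was drawn up with earlier results on these genes known, so these counts are not independent evidence. The median over the genes was -0.08 in pig 9, -0.24 in pig 10 and -0.60 in pig 11, and it lay between -0.03 and 0.01 in the adequate pigs. Without pig 9 the list median was -0.38. The bins of these genes had a median difference of -0.11, and -0.01 without pig 11.

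CACYBP, which binds the E3 ligase SIAH1 and has HSP90 partners, had values of 8.40, 8.46 and 8.37 in the adequate and 8.06, 8.06 and 7.74 in the excess pigs (-0.46 ± 0.09, unadjusted p = 0.00143, and -0.35 ± 0.06 without pig 11). DNAJA1, a J-domain partner of HSP70, had 9.90, 9.67 and 9.69 against 9.37, 9.41 and 9.17 (-0.44 ± 0.10, and -0.36 ± 0.09 without pig 11). CHORDC1, a zinc-binding partner of HSP90, had 9.65, 9.63 and 9.50 against 9.31, 9.09 and 8.94 (-0.48 ± 0.11, and -0.39 ± 0.11 without pig 11). HSPH1, a nucleotide exchange factor for HSP70, had 10.50, 9.72 and 10.31 against 9.68, 9.15 and 9.08 (-0.87 ± 0.23, and -0.76 ± 0.25 without pig 11), and pig 9 lay just below adequate pig 6. In all 4 genes pigs 9 and 10 lay below every adequate pig, as the naming rule required of all excess pigs.

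The deficient means of these 4 genes lay on the other side of the adequate means, by unlike amounts. DNAJA1 was 10.11, 10.30 and 10.26 in the deficient pigs (0.47 ± 0.10 above the adequate mean) and CHORDC1 10.17, 9.92 and 9.95 (0.42 ± 0.11 above). HSPH1 was 10.63, 10.37 and 10.52 (0.33 ± 0.23 above), which overlapped the adequate pigs, and CACYBP 8.58, 8.50 and 8.52 (0.12 ± 0.09 above). Both comparisons use the same adequate pigs, so these are not independent of each other. BAG3, a co-chaperone of HSP70, differed by -0.61 ± 0.25 and the small heat shock protein HSPB8 by -0.50 ± 0.19, with overlaps, and by -0.46 and -0.40 without pig 11. SERPINH1, the collagen chaperone, differed by -0.93 ± 0.40 and by -0.49 without it. The abundant chaperones HSPA8 and HSP90AB1 differed by -0.09 ± 0.07 and -0.05 ± 0.06, and by -0.05 and -0.03 without pig 11.

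**Figure D4:**
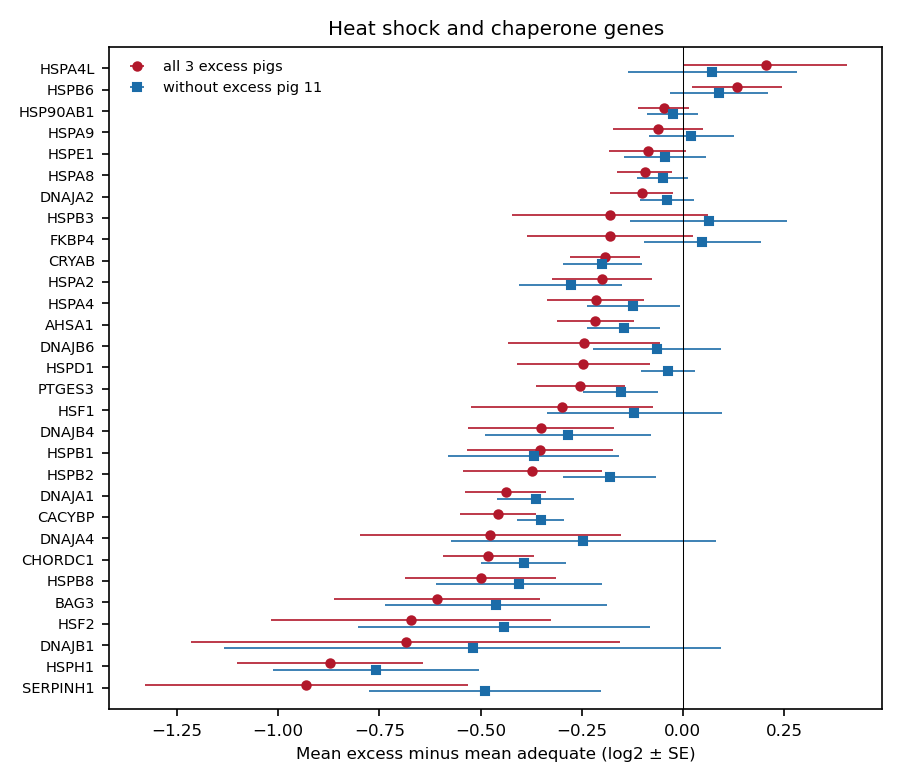
Mean excess minus mean adequate level (log2, with SE bars, horizontal axis) of the 30 measured heat shock and co-chaperone genes (rows), with all 3 excess pigs (red) and without pig 11 (blue). Most values move towards 0 without pig 11, and DNAJA1, CACYBP, CHORDC1 and HSPH1 stay between -0.76 and -0.35.

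A separate list held folding genes of the endoplasmic reticulum. Of 26 measured of 33 genes, 22 were lower with a median of -0.19, but without pig 11 it was 14 lower and 12 higher with a median of -0.04. The median difference of their level bins was -0.11, and -0.02 without pig 11. ERLEC1, a lectin that hands misfolded glycoproteins to degradation, lay apart, at 9.49, 9.44 and 9.29 in the adequate and 8.89, 9.07 and 8.60 in the excess pigs (-0.55 ± 0.12, and -0.42 ± 0.09 without pig 11). Its deficient values, 9.00, 8.95 and 8.91, lay below the adequate pigs as well. PDIA6, a protein disulfide isomerase, differed by -0.46 ± 0.16 and DNAJB9, a J-domain protein of the lumen, by -0.29 ± 0.11, and both were above an unadjusted p of 0.05 without pig 11 (0.079 and 0.0829).

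Genes of fat cells and fat synthesis lay lower, and their medians shrank without pig 11. In whole muscle, fewer cells of a type and less RNA per cell cannot be told apart. Of 17 measured of 21 adipocyte markers, 14 were lower with a median of -0.17, which was -0.09 without pig 11 (10 lower) and -0.09 without adequate pig 5. For the level bins of these markers the median difference was -0.08, and -0.01 without pig 11. CFD, the adipose complement factor D, had 8.08, 7.85 and 7.69 in the adequate and 7.53, 7.32 and 7.48 in the excess pigs, and pig 11 did not move it (-0.43 ± 0.11, and -0.45 ± 0.13 without pig 11). Its deficient values were 8.21, 8.05 and 8.12. At an unadjusted p under 0.05 there were 4 lower markers, CFD, LIPE, CIDEC and DGAT2, against 2.42% of all genes. Without pig 11 it was CFD alone, against 1.12%. LIPE, hormone-sensitive lipase, differed by -0.48 ± 0.18 without overlap, and by -0.38 without pig 11. Its excess values of 4.83, 4.79 and 4.54 lay below the median of all values.

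Of 17 measured of 23 fat synthesis genes 15 were lower with a median of -0.24, and without pig 11 it was 12 with a median of -0.05. For their level bins the median difference was -0.11, and -0.02 without pig 11. SCD, which desaturates stearate to oleate, had widely spread adequate values of 9.87, 9.21 and 8.11 against 8.50, 8.15 and 7.74 in the excess pigs, and the groups overlapped (-0.93 ± 0.42, and -0.74 ± 0.47 without pig 11). Without adequate pig 5 the difference was -0.53, and the deficient pigs had 10.55, 10.70 and 10.24. ME1, malic enzyme, which supplies NADPH, had close adequate values of 9.05, 9.03 and 9.00 and excess values of 8.91, 8.51 and 8.22 (-0.48 ± 0.15, and -0.31 ± 0.11 without pig 11). DGAT2, the last step of triglyceride synthesis, had 6.50, 6.15 and 5.23 against 5.02, 5.39 and 4.68 (-0.93 ± 0.34, and -0.75 ± 0.37 without pig 11), with adequate pig 7 near the excess pigs.

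The direction of fatty acid oxidation genes depended on pig 11. Of 18 measured of 26, 14 were lower with a median of -0.11 with all arrays, whereas without pig 11 there were 14 higher with a median of 0.10. By pig the median was 0.20 in pig 9, -0.05 in pig 10 and -0.41 in pig 11, and without pig 9 the list median was -0.26. The level bins of these genes had a median difference of -0.11, and of -0.01 without pig 11. SLC22A5, the carnitine transporter of the cell membrane, was 5.34, 5.37 and 5.46 in the adequate and 5.17, 5.04 and 4.82 in the excess pigs (-0.39 ± 0.12, and -0.29 ± 0.12 without pig 11). This is near the median of all values. ECHS1, an enoyl-CoA hydratase, differed by -0.34 ± 0.13 with an overlap (-0.32 without pig 11), and PPARA, a transcription factor of fat oxidation, by -0.47 ± 0.28, which was -0.15 without pig 11. Of the 9 measured of 15 cardiolipin genes, LCLAT1 among them, 7 were lower and the median was -0.14, whereas without pig 11 it was 5 lower and 4 higher with a median of -0.02. For their level bins the median difference was -0.11, and -0.02 without pig 11. PRELID1, a lipid carrier of mitochondria, differed by -0.43 and STOML2, a cardiolipin-binding protein, by -0.21, against -0.21 and -0.05 without it.

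Genes of the connective tissue between fibres were lower, and the size again depended on single pigs. Of 31 measured of 39 non-collagen matrix genes 30 were lower with a median of -0.37. The median was -0.16 without pig 11 (29 lower), -0.24 without adequate pig 5 and -0.55 without excess pig 9. By pig it was -0.06 in pig 9, -0.33 in pig 10 and -0.72 in pig 11, and it was 0.26 in adequate pig 5, the highest of the adequate pigs. The level bins of these genes had a median difference of -0.17, and of -0.03 without pig 11. The deficient pigs were also lower than the adequate pigs, with a list median of -0.27. The lower level was thus not particular to the excess pigs. DPT, dermatopontin, which binds collagen fibrils, had 8.72, 8.23 and 8.45 in the adequate pigs, while excess pigs 10 and 11 had 7.95 and 7.36 and pig 9 lay just above pig 10 (-0.70 ± 0.21, and -0.49 ± 0.18 without pig 11). MMP2, a gelatinase, differed by -0.63 ± 0.21 and TNXB, tenascin X, by -0.50 ± 0.21, and both overlapped (-0.51 and -0.33 without pig 11). LOX, which cross-links collagen, differed by -0.63 and by -0.66 without pig 11, and MFAP5, of the microfibrils, by -1.04 and -0.57. At an unadjusted p under 0.05 there were 6 lower genes with all arrays, the 5 named here and SERPINH1, against 2.42% of all genes. Without pig 11 it was 1 of the 31, DPT, against 1.12% of all genes.

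Of 14 measured of 18 collagen genes 13 were lower, with a median of -0.18, of -0.12 without pig 11 and of -0.08 without adequate pig 5. Their level bins had a median difference of -0.09, and of -0.01 without pig 11. The deficient pigs were also lower than the adequate pigs, with a list median of -0.16. COL3A1, of type III collagen, had 9.82, 9.59 and 9.16 against 9.33, 8.91 and 8.40 (-0.65 ± 0.28, and -0.40 ± 0.26 without pig 11). COL1A1, of type I, differed by -0.25 ± 0.12 and COL6A3, of type VI, by -0.42 ± 0.20, against -0.26 and -0.27 without pig 11. No collagen gene reached an unadjusted p of 0.05 on its brightest probe set, while 1 of the other COL6A3 probe sets did (-0.55 ± 0.21, unadjusted p = 0.0334, and 0.0896 without pig 11).

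Markers of other cells had medians closer to 0 than the non-collagen matrix genes. Smooth muscle and pericyte genes had a median of -0.12 (10 of 11 lower), of -0.07 without pig 11, and of -0.18 in the deficient pigs. Of these, CNN1, calponin, differed by -0.50 ± 0.19, TAGLN, transgelin, by -0.51 ± 0.26 and PDGFRB, the pericyte receptor, by -0.65 ± 0.30, against -0.35, -0.38 and -0.41 without pig 11. Endothelial genes had a median of -0.19 (9 of 13 lower), and -0.04 without pig 11. Both this list and the smooth muscle list had level bins with a median difference of -0.11. Without pig 11 it was -0.02 for endothelial and -0.01 for smooth muscle and pericyte genes. Among the endothelial genes FLT1 and ENG differed by -0.30 and -0.37 (-0.17 and -0.20 without pig 11). ECSCR was higher without overlap by 0.15 ± 0.07 (0.17 without pig 11). Macrophage and leukocyte genes had a median of -0.02 (11 of 19 lower), and of -0.01 without pig 11, with CD3E of T cells at -0.13, PTPRC of all leukocytes at 0.38 and CSF1R of macrophages at -0.43. Without pig 11 these were -0.12, 0.19 and -0.37. Nerve and Schwann cell genes, all of mean levels under 5, had a median of 0.07 (6 of 8 higher), and of 0.08 without pig 11. Their level bins had a median difference of 0.07, and of 0.02 without pig 11. Of these genes CDH19 differed by 0.59 with all arrays and 0.15 without pig 11, NEFL by 0.24 and 0.08, and MAG by 0.13 and 0.08. Erythrocyte genes had a median of 0.01 over 5 genes (0.02 without pig 11), and HBE1, ALAS2 and SLC4A1 differed by 0.07, 0.04 and 0.01, and by -0.03, 0.04 and 0.02 without pig 11. What part these cells have in the lower matrix and fat genes was not tested.

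**Figure D5:**
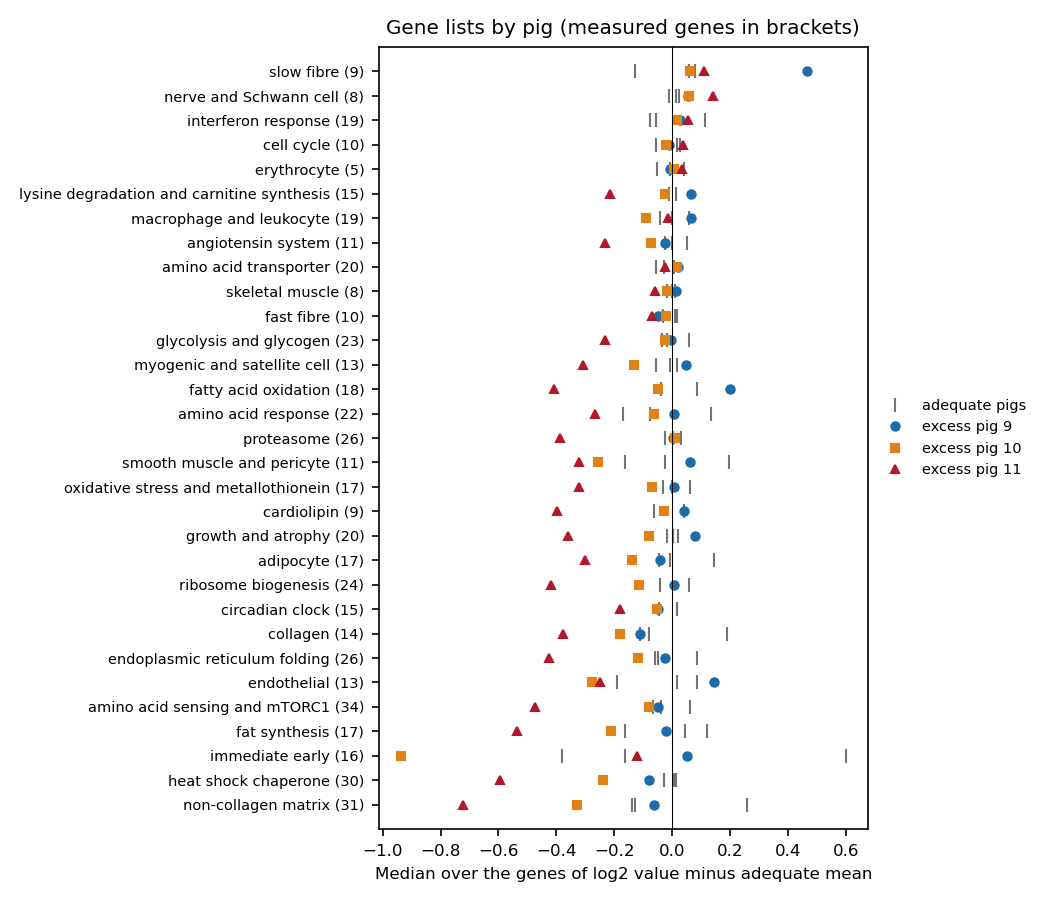
Median over the genes of each list (rows, measured genes in brackets) of the log2 value minus the adequate mean (horizontal axis), for the adequate pigs (grey bars) and the excess pigs (coloured symbols). Excess pig 11 is lowest in most lists, pig 10 is lowest in the immediate early genes at -0.94, and pig 9 is highest in the slow fibre genes at 0.46.

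The pathway that degrades lysine showed no common direction. Of 15 measured of 21 genes of lysine degradation and carnitine synthesis, 7 lay above and 8 below the adequate mean, with a median of -0.01, and of 0.05 without pig 11. At an unadjusted p under 0.05 there were 2 lower genes, ALDH9A1 and ECHS1, against 2.42% of all genes. Without pig 11 none was lower and 1 was higher, SLC25A29, against 1.12% and 0.987%. AASS, which joins lysine to ketoglutarate and splits the product, had 6.41, 7.35 and 7.48 in the adequate and 7.15, 7.38 and 7.31 in the excess pigs (0.20 ± 0.28, and 0.19 without pig 11). Without adequate pig 5 the difference was -0.13, so its sign rested on that pig. AADAT, the aminotransferase of the next steps, differed by 0.15 ± 0.10 (0.05 without pig 11) at a level below the median of all values. GCDH, glutaryl-CoA dehydrogenase, differed by -0.27, and by -0.03 without pig 11.

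On the carnitine branch, TMLHE, which hydroxylates trimethyllysine, differed by -0.19 (-0.07 without pig 11). ALDH9A1, the aldehyde dehydrogenase that follows in this branch, had 8.60, 8.46 and 8.42 against 8.38, 8.01 and 7.41 and was lower without overlap (-0.56 ± 0.23, and -0.30 ± 0.15 without pig 11). BBOX1, the last enzyme, differed by 0.42, and by 0.08 without it. SHMT2, a mitochondrial serine hydroxymethyltransferase that also stands among the amino acid response genes, differed by -0.48 ± 0.31, and by -0.11 without pig 11. SLC25A29, a mitochondrial carrier of basic amino acids, differed by 0.14 ± 0.12, and by 0.26 without pig 11 (unadjusted p = 0.0341), and its other probe set by -0.07, and by 0.08 without pig 11.

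Amino acid transporters split evenly, with 10 higher and 10 lower of 20 measured of 33, a median of -0.03 and of 0.02 without pig 11. SLC7A2, a carrier of lysine and arginine, had 9.89, 10.56 and 9.70 against 10.46, 10.49 and 10.02 (0.27 ± 0.24, and 0.42 ± 0.25 without pig 11). SLC7A1, the other cationic carrier measured, had 4.57, 4.56 and 4.56 against 4.50, 4.45 and 4.56, below the median of all values (-0.06 ± 0.07, and -0.08 without pig 11). SLC38A7, a lysosomal glutamine exporter, differed by -0.49 ± 0.20, SLC16A10, a carrier of aromatic amino acids, by -0.20 ± 0.11 and SLC36A1, a proton-coupled carrier, by -0.18 ± 0.12, and all 3 overlapped. Without pig 11 they differed by -0.32, -0.10 and -0.09.

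The amino acid response of the GCN2 and ATF4 pathway had 6 higher and 16 lower genes of 22 measured of 32, with a median of -0.12, and of -0.01 without pig 11. None had an unadjusted p under 0.05 or lay apart. The level bins of these genes had a median difference of -0.11, and of -0.01 without pig 11. PHGDH, the first enzyme of serine synthesis, had 4.92, 4.47 and 4.43 against 4.92, 4.28 and 4.43, all below the median of all values. The difference was -0.06 ± 0.19, and -0.01 without pig 11, whereas the deficient pigs had 6.89, 6.76 and 6.64. PSAT1, the next enzyme, had 7.57, 6.53 and 6.40 against 7.49, 6.77 and 6.78 (0.18 ± 0.50, and 0.30 without pig 11), and 10.07, 8.98 and 8.28 in the deficient pigs. The excess pigs thus overlapped the adequate pigs for both enzymes. CEBPB and DDIT3, transcription factors of the stress response, differed by -0.40 ± 0.19 and -0.38 ± 0.28, and by -0.20 and -0.13 without pig 11.

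Of 34 measured of 44 genes of amino acid sensing and mTORC1, 28 were lower with a median of -0.23, but -0.07 without pig 11 (21 lower). For their level bins the median difference was -0.11, and -0.02 without pig 11. WDR24, of the GATOR2 complex that relays amino acid signals to mTORC1, had 5.04, 5.12 and 5.14 against 4.96, 4.88 and 4.78, near the median of all values (-0.22 ± 0.07, and -0.18 ± 0.07 without pig 11). CASTOR1, an arginine sensor of this pathway, differed by -0.24 ± 0.10 and LAMTOR3, of the lysosomal anchor of mTORC1, by -0.29 ± 0.12, with overlaps, and by -0.13 and -0.16 without pig 11.

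Growth and atrophy genes had 5 higher and 15 lower of 20 measured of 32, with a median of -0.15, whereas without pig 11 it was 12 higher and 8 lower with a median of 0.05. The median difference of their level bins was -0.11, and -0.01 without pig 11. AKT2, a kinase of insulin signalling, had 10.23, 10.30 and 10.33 against 10.21, 9.97 and 9.95 (-0.24 ± 0.08, and -0.19 ± 0.08 without pig 11), where pig 9 was just below the adequate pigs. CAPN1, a calcium-activated protease, differed by -0.35 ± 0.16, and FOXO1, a transcription factor of muscle wasting, by -0.60 ± 0.29 (-0.17 and -0.25 without pig 11). Myostatin, MSTN, which restrains muscle growth, had 8.88, 9.93 and 9.56 against 9.54, 9.81 and 9.57 (0.18 ± 0.25, and 0.22 without pig 11). FBXO32, an atrophy ubiquitin ligase, had 8.97, 9.75 and 10.36 against 9.94, 9.69 and 9.91 (0.15 ± 0.33, and 0.12 without pig 11). Both signs turned without adequate pig 5, to -0.10 and -0.21.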

How the data were processed

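Per the labels' protocols, TRIzol-extracted RNA of frozen muscle was amplified to sense-strand cDNA and hybridised to GeneChip arrays. The authors deposited processed log values, and log2 was inferred from their range of 3.10 to 14.30. The submitters' processing notes list GCOS 1.2 and Partek with no role. How background and scale were treated, and the array's build, is not given in the sources used here. Hence no coordinates or sequences are printed. Symbols came from the platform annotation, updated by Entrez ID: 13323 probe sets had 1 symbol, 357 several and 13878 none here. The brightest probe set (highest mean) stands for a gene. The model was limma's lmFit and eBayes (version 3.58.1, R 4.3.3) with a mean for each diet over the 9 arrays, two-sided, with Benjamini-Hochberg adjustment over all probe sets, and again without excess pig 11. SE is from this fit. On simulated data for this comparison with 27558 probe sets, 61 of 100 changed 2-fold and 89 of 100 changed 4-fold were called, with 7 false calls. The simulated noise was independent between probe sets and arrays and held no level-dependent shift such as that of pig 11. These rates therefore do not carry over to the real arrays.

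The comparison, gene lists and naming rule were chosen with earlier results of these data known. The rule took probe sets with 1 symbol, at or above the median level, apart in all 6 pigs and at an unadjusted p under 0.05 in the same direction without pig 11: the 12 of smallest p and 8 of largest difference in each direction. It added the 3 leading members of each list and key genes. Members named beyond it were chosen after their values were seen. Lists are described by counts and medians, with no set test. Alternatives were repeated quantile normalization, median centring, a fit of the 6 arrays alone, a robust prior with an intensity trend, array SD as a covariate, array quality weights, leaving out the dimmest 25 percent, the mean of a gene's probe sets, leaving out single pigs and, added after seeing the data, cyclic loess. The pigs are separate animals.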

Additional observations from a re-analysis of the deposited data

How the results depend on the processing

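No alternative brought a probe set past an adjusted p of 0.05. The 981 probe sets at an unadjusted p under 0.05 became 592 with only the 6 arrays compared and 272 with array quality weights (estimated by a fit that stopped before its convergence tolerance), and 584 to 4638 when 1 of the 6 pigs was left out. Without pig 11 the 672 became 1344 with array SD as a covariate. The causes were not tested. None of the 28 genes named by p or size changed sign under any alternative. This includes cyclic loess normalization (chosen after seeing the data), where AGT differed by -1.06. These genes were named for lying apart in all 6 pigs. Leaving out a pig, weighting arrays or changing only the estimate of spread could therefore not turn their sign. Of the 118 probe sets named, 10 changed sign somewhere. With the SD covariate ACTA1 became -0.019, RYR1 0.000656, HBE1 -0.053 and PHGDH 0.052. With array quality weights RYR1 became 0.00677 and PHGDH 0.11. HBE1 became -0.00127, ALAS2 -0.018 and SLC4A1 -0.054 after cyclic loess, while ALAS2 and SLC4A1 were -0.022 and -0.043 after repeated quantile normalization and -0.012 and -0.045 after median centring. Leaving out single pigs gave ranges of -0.25 to 0.094 for PHGDH, -0.059 to 0.55 for PSAT1, -0.13 to 0.40 for AASS, -0.10 to 0.42 for MSTN, -0.21 to 0.49 for FBXO32, -0.025 to 0.14 for HBE1 and -0.019 to 0.034 for SLC4A1. Of the 31 list medians, 7 changed sign without excess pig 11 and 5 after cyclic loess, and 14 did so under at least 1 alternative. The medians of slow fibre, chaperone, non-collagen matrix, adipocyte and fat synthesis genes kept their signs, at 0.35, -0.14, -0.26, -0.16 and -0.09 after cyclic loess. With array SD as a covariate these medians were 0.34, -0.15, -0.14, -0.07 and -0.05. In that fit the adipocyte genes split into 8 higher and 9 lower, and the fat synthesis genes into 7 higher and 10 lower. No paired analysis was possible because the pigs of different diets share no number. With 3 arrays per group, differences near the median SE of 0.13 were not detectable, and far larger ones could be missed. Even AGT, at -1.25 ± 0.19, had an adjusted p of 0.757 by limma with all arrays.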

Other observations

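Immediate early genes, which are switched on within minutes by activity or stress, differed most between single excess pigs. Of 16 measured of 29, 13 were lower with a median of -0.24, and all 16 were lower without excess pig 11, with a median of -0.37. By pig the median was -0.94 in pig 10, against 0.05 in pig 9 and -0.12 in pig 11, and the adequate pigs themselves ran from -0.38 to 0.60. Without pig 10 the list median was 0.04. CYR61, a matricellular protein, had 7.91, 6.49 and 6.74 in the adequate and 6.78, 5.70 and 6.11 in the excess pigs (-0.85 ± 0.45, and -0.80 without pig 11). EGR1 differed by -0.56 ± 0.35 and IER2 by -0.14 ± 0.08 (-0.56 and -0.09 without pig 11), and no member lay apart. IER2 lay below the median of all values. In the circadian clock, 12 of 15 genes were lower with a median of -0.18, and of -0.12 without pig 11. The median difference of their level bins was -0.11, and -0.01 without pig 11. Of the clock genes BHLHE40 differed by -0.19, PER2 by -0.29 and USP2 by -0.22, each with an overlap. Without pig 11 these were -0.14, -0.29 and -0.09.

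Lists of protein turnover lost most of their difference without pig 11. All 24 measured of 33 ribosome biogenesis genes lay lower (median -0.18), as did 19 of them without it (median -0.04). Their level bins had a median difference of -0.17, and of -0.03 without pig 11. NAT10, an RNA acetyltransferase of the nucleolus, had 6.56, 6.73 and 6.53 against 6.44, 6.22 and 6.07 (-0.36 ± 0.12, and -0.27 ± 0.11 without pig 11), while PES1 and DDX21 differed by -0.27 and -0.33 (-0.12 and -0.17 without it). Proteasome genes had a median of -0.12 (23 of 26 lower), and of 0.03 without pig 11. Their bins had a median difference of -0.11, and of -0.01 without pig 11. Glycolysis, oxidative stress and myogenic genes, given below, had the same bin medians. The leading proteasome members PSMD12, PSMD8 and PSMD3 differed by -0.20, -0.27 and -0.32, and by -0.17, -0.12 and -0.13 without pig 11. Glycolysis and glycogen genes had a median of -0.07 (20 of 23 lower), and of -0.01 without pig 11 (17 lower), with PFKFB1 at -0.24, PPP1R3C at -0.61 and ENO1 at -0.60. For these genes the values without pig 11 were -0.14, -0.28 and -0.20. Genes of oxidative stress defence had a median of -0.14 (12 of 17 lower), but of -0.05 without pig 11 (9 lower). Among them GPX3 was at -0.65 ± 0.25, GCLC at -0.30 and TXNRD1 at -0.20, against -0.41, -0.26 and -0.12 without pig 11. Interferon response genes had a median of 0.04 (13 of 19 higher), and of 0.06 without pig 11. Their level bins had a median difference of 0.03, and of 0.01 without pig 11. The list median turned to -0.0044 after repeated quantile normalization and to -0.0123 after median centring. GBP2 was at 0.10, OASL at 0.10 and IFIH1 at 0.27 (0.13, 0.06 and 0.23 without pig 11). GBP2 and OASL lay below the median of all values. Cell cycle genes had a median of 0.03 (5 of 10 higher), which turned to -0.03 without pig 11 (3 higher). CDK1 was at -0.15 on 1 probe set and 0.12 on the other, CCNB2 at 0.16 and MCM2 at -0.10, against -0.15, 0.03, 0.03 and -0.08 without pig 11. All of these lay below the median of all values. Myogenic and satellite cell genes had a median of -0.08 (10 of 13 lower), and of -0.06 without pig 11 (7 lower). MYOG was at -0.43, SPRY1 at -0.26 and MET at -0.25, against -0.23, -0.23 and -0.27 without pig 11. In these last 4 lists GPX3 alone had an unadjusted p under 0.05 with all arrays. Without pig 11 it did not, and the myogenic factor MYOD1 did, at 0.11 with all arrays and 0.37 without pig 11.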
